A study of Mus musculus with 15 samples.

Results

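Enzymes that oxidise, reduce, hydrolyse or conjugate steroids, retinoids and foreign compounds were followed across 5 groups of mouse uterine epithelium. A gene was taken if the Ctrl or E-OEX tables listed it and its symbol began as a cytochrome P450 (Cyp), UDP-glucuronosyltransferase (Ugt), flavin monooxygenase (Fmo), sulfotransferase (Sult), glutathione transferase (Gst), aldehyde dehydrogenase (Aldh), aldo-keto reductase (Akr1), carboxylesterase (Ces) or hydroxysteroid dehydrogenase (Hsd). Cyp51 and Hsd17b7 were left out by name. This gave 103 genes, of 8384 listed in those tables and 28269 listed in any table. They comprised 35 Cyp, 14 Gst, 13 Aldh, 10 Ugt, 8 Akr1, 7 Sult, 6 Fmo, 5 Ces and 5 Hsd genes. Of these, 4 are pseudogenes or antisense RNAs in the GENCODE M21 annotation (Cyp4a28-ps, Cyp4f41-ps, Cyp4x1os and Gstm2-ps1).

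Such enzymes work in steps. Cyp, Fmo, Ces, Aldh, Akr1 and Hsd enzymes add, expose or convert a reactive group on a small lipophilic molecule. Ugt, Sult and Gst enzymes then attach glucuronic acid, sulfate or glutathione, which makes it more soluble. In the uterus several of them act on estrogens, progesterone and retinoic acid, so their levels bear on how much hormone reaches its receptor within the tissue.

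All libraries were total-RNA sequencing libraries from epithelium on day 4, with 3 libraries in each group. The luminal epithelium (LE) lines the uterine cavity and the glandular epithelium (GE) forms the uterine glands. Ctrl-LE and Ctrl-GE came from wild-type mice. E-OEX-LE, E-OEX-GE and U-OEx-LE came from mice labelled as overexpressing Notch1, the receptor that gives the series its subject. What separates E-OEX from U-OEx, the driver of the transgene, the animals' age and whether each library came from its own animal are not given in the sources used here. The p-values therefore measure the spread between libraries, which may be technical. Notch1 was not analysed in the Ctrl and E-OEX tables, so the genotype labels were not checked on it.

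Of the 103 genes, 76 were listed for Ctrl, 66 for E-OEX and 95 for U-OEx, and 37 were listed in all 3 sets of tables. Listed reads per library were 3818041 to 4797424 in Ctrl, 1980800 to 3494859 in E-OEX and 13541644 to 14981505 in U-OEx. The Ctrl and E-OEX sums cover lists of genes that differ between GE and LE, so they are not sequencing depths. Luminal markers summed to 35803 to 61637 in the Ctrl-LE libraries and to 925 to 1483 in Ctrl-GE. Glandular markers other than Sox17 (9 genes) summed to 49.7 to 113 in Ctrl-LE and to 32787 to 56382 in Ctrl-GE. Sox17, also on that list, was higher in LE, with a mean of 25947 in Ctrl-LE and 11319 in Ctrl-GE. Stromal markers summed to 369 to 7743 in Ctrl-LE and to 34625 to 100504 in Ctrl-GE, so the glandular libraries held more stromal RNA. In bulk libraries, fewer cells of a type and less RNA per cell cannot be told apart.

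Levels below are deposited scaled read counts, each library in the order of its replicate number, and means are ± SD with n = 3. Differences between genotypes are log2 fold changes of reads rescaled together, with a pseudocount of 1, and their p-values are from limma, adjusted by Benjamini-Hochberg over all genes tested. On the deposited scale the median of all genes would lie higher by 0.17 for E-OEX-LE against Ctrl-LE, by 0.45 for E-OEX-GE against Ctrl-GE, by 0.01 for U-OEx-LE against Ctrl-LE and by 0.12 for U-OEx-LE against E-OEX-LE (log2). A group with at most 3 reads in every library is called at the floor, and a fold against it is a lower bound computed at 3 reads per library. Genes with a mean under 1 over the libraries compared were filtered out. A gene at the floor in 1 group thus passed this filter chiefly through the other group. The Ctrl and E-OEX lists were also chosen for GE to LE differences in the same libraries. Calls against a group at the floor are therefore no independent evidence. Symbols and coordinates are of the mouse genome build GRCm38.

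In E-OEX-LE against Ctrl-LE, 8 of the 37 enzyme genes tested passed an adjusted p of 0.05 in limma (21.6%), against 10.7% of all 2600 genes. Ugt2b34, Hsd17b14, Fmo1, Gstk1 and Fmo2 rose (5.12% of all genes rose) and Cyp26c1, Sult1d1 and Gsto1 fell (5.54% of all genes fell). The libraries of the 2 groups did not overlap in 8 of the 37, and in 29.9% of all genes. The median log2 difference was -0.08 over the enzyme genes tested and -0.09 over all genes tested. The count fell to 4 without Ctrl-LE replicate 2, to 3 without Ctrl-LE replicate 3, to 3 without E-OEX-LE replicate 1 and to 4 without E-OEX-LE replicate 2. Ugt2b34, Hsd17b14 and Fmo1 passed in each of the 6 fits that left out 1 library. In this comparison Ltf rose and Calb1 and Lpar3 fell among 7 luminal markers tested, which summed to 33319 to 57772 in E-OEX-LE and 35803 to 61637 in Ctrl-LE. Wfdc3 rose among 7 glandular markers tested, with sums of 215 to 1321 in E-OEX-LE and 49.7 to 102 in Ctrl-LE, and their part in the enzyme results was not tested.

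In E-OEX-GE against Ctrl-GE, 17 of 38 enzyme genes passed in limma (44.7%), against 23.5% of all 2851 genes. The 5 that rose were Ugt2b34, Fmo2, Ces1f, Fmo1 and Ces1d, where 9.72% of all genes rose and 13.8% fell. The groups did not overlap in 26 of the 38, against 40.5% of all genes. The 12 that fell held 4 Cyp3a genes, Cyp26c1, 3 Akr1 genes, 2 Gst genes, Sult1d1 and Aldh1l1. On the deposited scale 10 passed as higher and 8 as lower, so the split between directions rests on the rescaling. The medians were -0.04 over the enzyme genes and 0.05 over all genes tested (log2). In the same comparison 4 of 5 smooth muscle markers tested rose (Cnn1, Myh11, Acta2 and Actg2), and the tested ones summed to 14150 to 17496 in E-OEX-GE and 2734 to 4878 in Ctrl-GE. Glandular markers fell in 5 of 7 tested (Spink1, Cxcl15, Calca, Lif and Ttr), from sums of 23799 to 32026 to sums of 5886 to 9168. The 8 stromal markers tested summed to 76879 to 91308 in E-OEX-GE and 34625 to 100504 in Ctrl-GE. The part of these shifts in the glandular results was not tested.

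In U-OEx-LE against Ctrl-LE, 45 of 72 enzyme genes passed in limma (62.5%), which is near the 56.9% of all 5949 genes. Of the 45, 22 rose (29.1% of all genes rose) and 23 fell (27.8% of all genes fell). The groups did not overlap in 48 of the 72, against 63.8% of all genes. The medians were -0.31 over the enzyme genes and 0.09 over all genes tested (log2), and 37 of the 45 passed in each fit without 1 library. In these libraries 3 of 4 general epithelial markers fell (Cdh1, Epcam and Cldn3), from sums of 77523 to 87885 to sums of 31571 to 45803. Adgre1 and Lyz2 rose among 3 immune markers tested, which summed to 1413 to 2332 in U-OEx-LE and 579 to 1219 in Ctrl-LE. Tek and Pecam1 rose among 6 endothelial markers, and Serpina1a, the 1 hepatocyte marker tested, fell. Cnn1 and Des fell among 4 smooth muscle markers, and Hoxa11 fell among 8 stromal markers. Of 8 glandular markers tested 4 rose and 2 fell, and of 7 luminal markers 3 rose and 3 fell. The part of these markers in the enzyme results was not tested. In U-OEx-LE against E-OEX-LE, 15 of 56 passed in limma (26.8%, against 15% of all 4275 genes). In U-OEx-LE 3 were higher and 12 lower, where 6.97% of all genes were higher and 8.05% lower. The groups did not overlap in 23 of the 56, against 38.2% of all genes. The 15 calls fell to 3 without U-OEx-LE replicate 1 and to 4 without U-OEx-LE replicate 3, and it was 10 without E-OEX-LE replicate 2 or replicate 3. Cyp26a1, Sult1d1 and Cyp4x1 passed in each of these fits. Among markers, Pecam1 and Emcn (endothelium), Itgam (immune), Acta2 (smooth muscle) and Ltf (luminal) were higher in U-OEx-LE and Calb1 and Lpar3 (luminal) lower. The 3 immune markers tested summed to 839 to 1601 in U-OEx-LE and 232 to 440 in E-OEX-LE, and the part of these markers was not tested.

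Of the 36 enzyme genes tested in all 3 comparisons with Ctrl, Ugt2b34, Fmo1 and Fmo2 rose in each, and Cyp26c1, Sult1d1 and Gsto1 fell in each. Over all 2483 genes tested in the 3 comparisons, 1.17% rose in each and 1.69% fell in each. The comparisons in LE share the Ctrl-LE libraries. Over all comparisons, 95 of the 103 genes were tested at least once and 59 (62.1%) passed at least once, as did 50.5% of the 7887 genes tested in all. The other 8 were listed for too few groups or had too few reads.

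Ugt2b34 (ENSMUSG00000029260, chromosome 5, 86889767 to 86906937, minus strand) encodes a glucuronosyltransferase and had the largest rise of the enzyme genes tested in E-OEX-LE and in E-OEX-GE. Its values were 0, 0 and 2.24 in Ctrl-LE, 263, 89.0 and 55.05 in E-OEX-LE and 123, 190.2 and 33.6 in U-OEx-LE. Both sets of overexpressing LE libraries lay above every Ctrl-LE library and overlapped each other. Ctrl-LE was at the floor, so the rise of Ugt2b34 was at least 36.3-fold for E-OEX-LE (log2 6.09, SE 0.83, limma adjusted p = 0.00337) and at least 35.7-fold for U-OEx-LE (log2 6.0, SE 0.79, limma adjusted p = 0.000393). In LE, Ugt2b34 passed the filter on low values through the overexpressing groups. Ctrl lists it for a GE to LE difference in which Ctrl-LE was the lower. These 2 rises in LE are thus no independent evidence. Between the overexpressing groups in LE, U-OEx minus E-OEX was -0.36 (log2, SE 0.74, limma adjusted p = 0.772). The 7 glandular markers tested, 5 of them with positive differences, summed to 215 to 1321 in E-OEX-LE and 49.7 to 102 in Ctrl-LE. In U-OEx-LE against Ctrl-LE, 4 of 8 glandular markers rose and 2 fell. The part of gland RNA in the rise of Ugt2b34 in LE was not tested.

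In GE, Ugt2b34 stood at 3.89, 19.9 and 8.65 in Ctrl-GE and at 4870, 6568 and 6241 in E-OEX-GE. The mean went from 10.8 ± 8.22 to 5893 ± 901 (n = 3 each), 401-fold on rescaled means (log2 8.76, SE 0.45, limma adjusted p = 4.16e-06). The rise in GE was larger than that in LE by 2.98 on the log2 scale, and that difference did not pass (SE 0.98, limma adjusted p = 0.0705). The smooth muscle markers given above moved in the same glandular libraries. Ugt2b34 shares 1.44% of its 50-base stretches with another gene.

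The bases before the start of Ugt2b34 are shown because the gene rose in every comparison with Ctrl. RBPJ is the DNA-binding partner of activated Notch and its core motif is TGGGAA. Capitals mark the match found in these 250 bases (RefSeq, GRCm38.p6, chr5:86906938-86907187, minus strand, 5′ to 3′), which reads TTCCCA on the gene's strand and lies 159 bases before the start.
Ugt2b34: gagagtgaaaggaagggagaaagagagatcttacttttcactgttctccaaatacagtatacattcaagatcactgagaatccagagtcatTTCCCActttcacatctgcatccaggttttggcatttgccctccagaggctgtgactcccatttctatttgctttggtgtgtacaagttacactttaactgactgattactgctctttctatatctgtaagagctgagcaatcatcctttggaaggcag
The motif, searched on both strands in 250 bases before the start, was present in 25 of 92 RefSeq promoters of the enzyme genes (27.2%). It was in 21.6% of the 32851 promoters searched, which do not cover every chromosome. The promoters covered 81 of the 103 genes. The core of the AHR motif (GCGTG) was in 19.6% against 28.2%, and that of the antioxidant element (TGACNNNGC) in 5.43% against 10.2%. These matches describe letters in a window and say nothing of binding.

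Over the 15 libraries and 2818 genes listed everywhere, the genes whose levels were ranked most like Ugt2b34 were Rasl11a, Hey1, Ptprm, Id1 and Cdkn1a, with Spearman's rho of 0.93, 0.92, 0.91, 0.91 and 0.90. Fmo1 had 0.88 and Fmo2 0.85. The libraries share group and tissue, and these values describe likeness only.

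The flavin monooxygenases oxidise nitrogen and sulfur atoms in drugs and amines. Both members listed for Ctrl, Fmo1 and Fmo2, rose in each overexpressing group. Fmo1 (chromosome 1, 162829561 to 162866610) was 10.4, 22.5 and 6.71 in Ctrl-LE, 874.5, 333 and 137 in E-OEX-LE and 1626, 725 and 1136 in U-OEx-LE. No overexpressing library overlapped Ctrl-LE. The log2 fold change was 4.59 in E-OEX-LE (SE 0.73, limma adjusted p = 0.00644) and 6.42 in U-OEx-LE (SE 0.49, limma adjusted p = 2.81e-05). In GE, Fmo1 went from 194, 371 and 209 to 2553, 1999 and 2062 (log2 2.68, SE 0.29, limma adjusted p = 0.000217).

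Fmo2 (ENSMUSG00000040170, chromosome 1, 162874317 to 162898726), a neighbour of Fmo1, was 410.2, 284 and 424 in Ctrl-LE, 1913, 1015 and 2891 in E-OEX-LE and 3611, 4784 and 2537 in U-OEx-LE. The log2 fold changes were 2.10 (SE 0.49, limma adjusted p = 0.0247) and 3.24 (SE 0.31, limma adjusted p = 8.27e-05). The first of these did not pass without Ctrl-LE replicate 2, Ctrl-LE replicate 3 or E-OEX-LE replicate 1 (limma adjusted p from 0.0742 to 0.0984). In GE the values were 135, 190 and 88.2 in Ctrl and 8653, 15304 and 15113 in E-OEX. The mean went from 138 ± 50.7 to 13023 ± 3786 (n = 3 each), 68.2-fold on rescaled means and 6.11 on the log2 scale (SE 0.31, limma adjusted p = 4.16e-06).

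Fmo2 thereby changed sides. Its mean was 2.71-fold higher in LE than in GE in Ctrl and 6.71-fold higher in GE than in LE in E-OEX. The E-OEX effect was larger in GE than in LE by 4.30 (log2, SE 0.60, limma adjusted p = 0.00113), and this interaction passed under every setting tried. For Fmo1 the same difference was -1.61 (SE 0.85, limma adjusted p = 0.273). Fmo4, Fmo5 and Fmo6 were listed for E-OEX and U-OEx, and U-OEx-LE minus E-OEX-LE was -0.05, -0.75 and -2.15 (log2, limma adjusted p = 0.962, 0.323 and 0.0793).

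**Figure D1:**
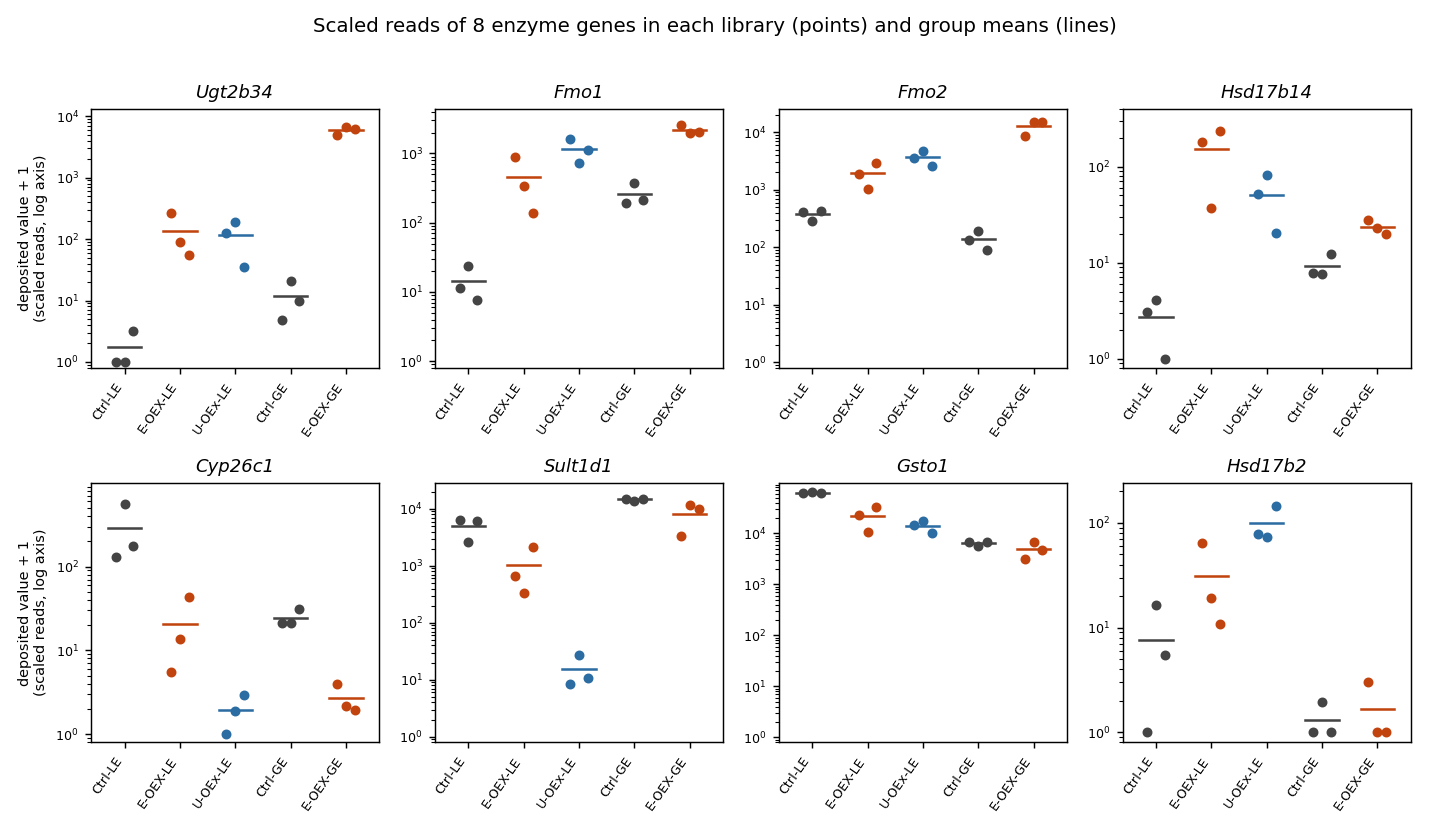
Scaled read counts plus 1 (log axis) of 8 enzyme genes in the 3 libraries of each group, with points for libraries and lines for group means. Ugt2b34, Fmo1 and Fmo2 stand higher in each overexpressing group than in Ctrl of the same epithelium, and Cyp26c1, Sult1d1 and Gsto1 stand lower.

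The Cyp3a enzymes are broad-substrate P450s that hydroxylate steroids and drugs and are best known from liver. All 4 Cyp3a genes tested in GE fell in E-OEX-GE, 3 of them steeply, where 13.8% of all genes fell. Cyp3a25 (ENSMUSG00000029630) was 420.4, 429 and 589 in Ctrl-GE and 4.01, 11.5 and 14.1 in E-OEX-GE (log2 -6.05, SE 0.41, limma adjusted p = 3.11e-05). Cyp3a59 was 2560, 2838 and 3538 in Ctrl-GE and 18.0, 128 and 110.5 in E-OEX-GE (log2 -5.97, SE 0.58, limma adjusted p = 0.000137). Cyp3a16 was 213, 232 and 203 in Ctrl-GE and 2.0, 21.8 and 15.9 in E-OEX-GE (log2 -4.81, SE 0.63, limma adjusted p = 0.000611). In these 3 genes every E-OEX-GE library was below every Ctrl-GE library by a wide margin, and the first E-OEX-GE library was the lowest.

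Cyp3a57 spread more. It was 1435, 1494 and 1502 in Ctrl-GE and 416, 973 and 1447 in E-OEX-GE, so the third E-OEX library lay near the Ctrl values on the deposited scale. Its log2 fold change was -1.28 (SE 0.36, limma adjusted p = 0.0275). It did not pass on the deposited scale (limma adjusted p = 0.15), in the fit of all 5 groups together (0.431) or without any 1 of the Ctrl-GE libraries (0.0713 to 0.132). In LE these 4 genes were low in every group that lists them. Cyp3a59 had 0, 6.14 and 1.12 in Ctrl-LE and 0 in each E-OEX-LE and U-OEx-LE library. Cyp3a57 had 18.3, 1.82 and 21.6 in E-OEX-LE and 0 in each U-OEx-LE library. Another member, Cyp3a13, was listed for Ctrl and U-OEx and stood higher in LE than in GE in Ctrl, at 35.2, 4.10 and 13.4 against 1.95, 0 and 0. Its U-OEx-LE values of 1.84, 3.55 and 11.5 overlapped Ctrl-LE (log2 -1.37, SE 0.89, limma adjusted p = 0.216).

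These 4 genes lie within chromosome 5, from Cyp3a57 at 145345279 to Cyp3a59 at 146113287. The 100 bases before each RefSeq start (GRCm38.p6, 5′ to 3′ on the gene's strand) are shown because these neighbours fell together, and to compare Cyp3a57 with the others. Windows are chr5:145469724-145469823 (minus) for Cyp3a16, chr5:146009619-146009718 (minus) for Cyp3a25, chr5:145345169-145345268 (plus) for Cyp3a57 and chr5:146079158-146079257 (plus) for Cyp3a59. Capitals mark TTCCCA, the RBPJ core read on the other strand.
Cyp3a16: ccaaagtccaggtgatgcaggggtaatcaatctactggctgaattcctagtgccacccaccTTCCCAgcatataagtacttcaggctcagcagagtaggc
Cyp3a25: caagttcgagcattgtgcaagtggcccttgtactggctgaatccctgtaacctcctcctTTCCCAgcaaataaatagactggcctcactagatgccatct
Cyp3a57: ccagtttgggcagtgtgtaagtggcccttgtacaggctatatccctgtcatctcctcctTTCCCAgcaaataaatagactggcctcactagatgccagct
Cyp3a59: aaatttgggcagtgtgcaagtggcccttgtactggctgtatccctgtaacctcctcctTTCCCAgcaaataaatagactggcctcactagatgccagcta
The match lies 39 bases before the start in Cyp3a16, 41 in Cyp3a25, 41 in Cyp3a57 and 42 in Cyp3a59. Over the 250 bases before the start, Cyp3a25, Cyp3a57 and Cyp3a59 were 88.9% to 94.8% identical, and Cyp3a16 matched them at 55.7% to 57.4%. The longest transcripts of Cyp3a25, Cyp3a57 and Cyp3a59 were 91.7% to 96.5% identical, and that of Cyp3a16 matched them at 64.4% to 65.5%. Cyp3a25 shared 26.8% of its 50-base stretches with Cyp3a59 or another gene, Cyp3a59 30.0% and Cyp3a16 10.7%, so the share of reads assigned to each is uncertain. Cyp3a57 shared 8.63% of its stretches, most often with Cyp3a59. Its rescaled mean in E-OEX-GE was 2.23-fold below that in Ctrl-GE. The part of the upstream bases in these falls was not tested.

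**Figure D2:**
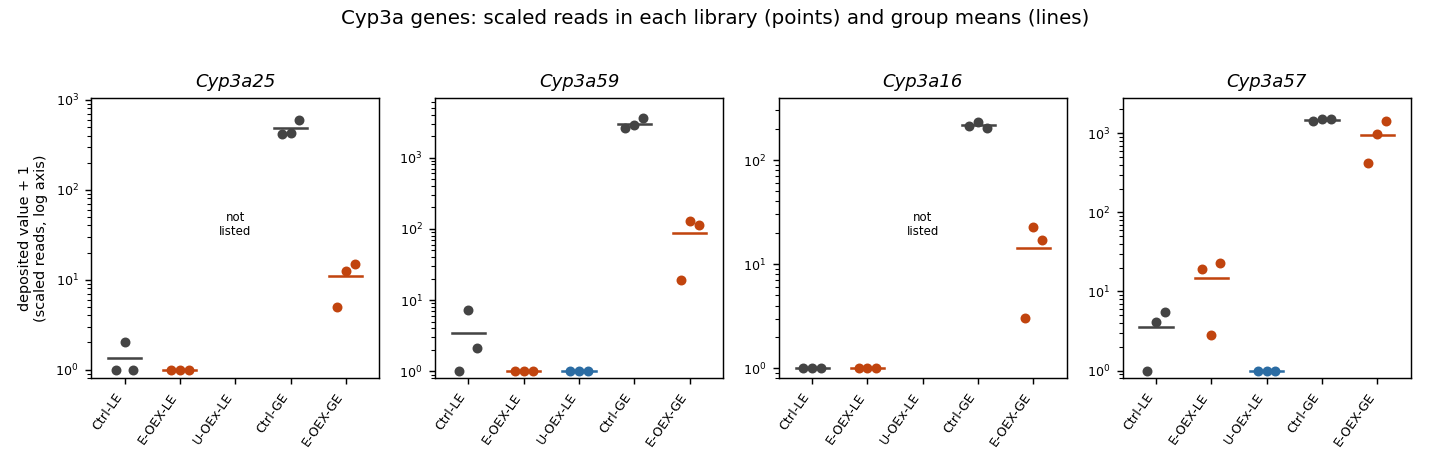
Scaled read counts plus 1 (log axis) of 4 Cyp3a genes in the 3 libraries of each group, with lines for group means; genes that a set of tables does not list are marked. Cyp3a25, Cyp3a59 and Cyp3a16 drop by 23.1 to 69.4-fold on rescaled means in E-OEX-GE, and Cyp3a57 spreads from 416 to 1447.

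The Akr1 reductases act on the ketone groups of steroids, and 3 of the 4 tested fell in E-OEX-GE, where 13.8% of all genes fell. Akr1d1, which reduces the double bond of progesterone and other steroids on the way to bile acids, was 326, 227 and 365 in Ctrl-GE and 4.01, 20.7 and 12.2 in E-OEX-GE (log2 -5.19, SE 0.50, limma adjusted p = 0.000137). Akr1c18, which inactivates progesterone, was 71.0, 62.6 and 63.2 in Ctrl-GE and 4.01, 6.90 and 2.81 in E-OEX-GE (log2 -4.06, SE 0.43, limma adjusted p = 0.00019). Both genes were separated fully between the groups. Akr1c19 fell by 1.63 (log2, SE 0.25, limma adjusted p = 0.00177), from 2229 ± 160 to 1030 ± 307 (n = 3 each). These 3 falls were in the libraries in which glandular markers fell and smooth muscle markers rose.

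In LE the Akr1 genes split. Akr1c19 had 486, 217 and 683 in Ctrl-LE, 121, 421 and 527 in E-OEX-LE and 28.5, 42.7 and 38.4 in U-OEx-LE. The U-OEx-LE libraries lay below all others (log2 -3.52 against Ctrl-LE, SE 0.47, limma adjusted p = 0.000421), while E-OEX-LE overlapped Ctrl-LE. Akr1c14, which reduces dihydrotestosterone, also fell in U-OEx-LE (log2 -3.48, SE 0.81, limma adjusted p = 0.00709), from 13.5, 120 and 38.0 to 3.68, 0.889 and 4.80. Akr1d1 fell too. Akr1c12 rose from 10.4, 4.10 and 5.59 to 38.6, 55.1 and 71.1 (log2 2.88, SE 0.53, limma adjusted p = 0.00218), and it shares 28.6% of its 50-base stretches with another gene.

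Of the hydroxysteroid dehydrogenases, Hsd17b14 rose in E-OEX-LE and U-OEx-LE and Hsd17b2 rose in U-OEx-LE. Both oxidise estradiol and related hydroxysteroids to less active ketones. Hsd17b14 was 2.07, 3.07 and 0 in Ctrl-LE, 179.8, 36.3 and 234 in E-OEX-LE and 50.5, 80.0 and 19.2 in U-OEx-LE. Its rise was at least 40.8-fold for E-OEX-LE (log2 5.53, SE 0.89, limma adjusted p = 0.00644) and at least 15.4-fold for U-OEx-LE (log2 4.22, SE 0.75, limma adjusted p = 0.00186). Ctrl lists Hsd17b14 with the lower mean in LE, where it was at the floor, so these rises are no independent evidence. In GE it was 6.81, 6.64 and 11.2 in Ctrl and 27.0, 21.8 and 18.7 in E-OEX, a change of 0.94 (log2, SE 0.45, limma adjusted p = 0.163). The E-OEX effect was smaller in GE by 4.28 (log2 -4.28, SE 1.02, limma adjusted p = 0.0174), and without Ctrl-GE replicate 3 this did not pass (0.0545). Hsd17b14 was the other gene that changed sides, with a higher mean in GE in Ctrl and in LE in E-OEX.

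Hsd17b2, which converts estradiol to estrone, was 0, 15.4 and 4.47 in Ctrl-LE and 78.1, 72.0 and 144 in U-OEx-LE (log2 4.43, SE 0.94, limma adjusted p = 0.00453). E-OEX-LE lay between, at 63.0, 18.2 and 9.71, and overlapped Ctrl-LE (log2 2.29, SE 1.08, limma adjusted p = 0.216). Hsd11b2, which inactivates glucocorticoids, was 551, 964 and 319 in Ctrl-GE and 1655, 1182 and 766 in E-OEX-GE. Its groups overlapped (log2 0.58, SE 0.43, limma adjusted p = 0.393). Hsd11b1, which makes active glucocorticoid, was 138, 26.6 and 35.8 in Ctrl-LE and 80.9, 12.4 and 113 in U-OEx-LE, with full overlap.

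Among steroid and vitamin D P450s, Cyp7b1, Cyp21a1 and Cyp27b1 rose in U-OEx-LE against Ctrl-LE. Cyp7b1, an oxysterol and steroid hydroxylase, was 3.11, 3.07 and 3.35 in Ctrl-LE, 23.7, 6.36 and 3.24 in E-OEX-LE and 64.3, 72.0 and 50.9 in U-OEx-LE. U-OEx-LE was at least 19.3-fold above Ctrl-LE (log2 3.89, SE 0.44, limma adjusted p = 0.00018). Cyp21a1, the steroid hydroxylase of corticoid synthesis, was 65.3, 131 and 53.6 in Ctrl-LE, 120, 35.4 and 18.3 in E-OEX-LE and 399.7, 417 and 574 in U-OEx-LE (log2 2.53 against Ctrl-LE, SE 0.38, limma adjusted p = 0.00076). Both were higher in U-OEx-LE than in E-OEX-LE as well, by 2.67 (SE 0.66, limma adjusted p = 0.0314) and 3.25 (SE 0.59, limma adjusted p = 0.0125). Against E-OEX-LE, Cyp7b1 did not pass without E-OEX-LE replicate 2 or 3 or any 1 U-OEx-LE library (0.0604 to 0.13) or in edgeR (adjusted p = 0.052). Cyp21a1 did not pass without U-OEx-LE replicate 1 or 3 (0.0703 to 0.0775), and it shares 23.8% of its 50-base stretches, chiefly with the pseudogene Cyp21a2-ps. Cyp27b1, which makes active vitamin D, was at least 12.6-fold higher in U-OEx-LE (56.1, 24.0 and 41.3) than in Ctrl-LE (1.04, 3.07 and 1.12; log2 3.91, SE 0.56, limma adjusted p = 0.00061). Cyp7b1 and Cyp27b1 were at the floor in Ctrl-LE and listed for Ctrl as higher in GE. Their rises over Ctrl-LE are thus no independent evidence.

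The Cyp26 enzymes degrade retinoic acid and the Aldh1a enzymes make it. Cyp26c1 fell in every comparison with Ctrl. Its values were 128, 558 and 174 in Ctrl-LE, 4.56, 12.7 and 42.1 in E-OEX-LE and 0, 0.889 and 1.92 in U-OEx-LE. No library of one LE group overlapped another, and U-OEx-LE, at the floor, was at least 102-fold lower than Ctrl-LE (log2 -7.07, SE 0.67, limma adjusted p = 7.87e-05). E-OEX-LE was lower than Ctrl-LE by 15.3-fold (log2 -4.13, SE 0.84, limma adjusted p = 0.0166), which did not pass without Ctrl-LE replicate 2 or 3 or E-OEX-LE replicate 1 or 2 (0.0595 to 0.0684). In GE it went from 20.4, 19.9 and 30.3 to the floor, at least 10.5-fold lower (log2 -3.60, SE 0.52, limma adjusted p = 0.00114). Cyp26c1 passed the filter on low values chiefly through Ctrl, and Ctrl lists it as higher in LE. Its falls are thus no independent evidence.

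Cyp26a1, listed for E-OEX and U-OEx, was 101, 124 and 664 in E-OEX-LE and 5.51, 0.889 and 6.72 in U-OEx-LE (log2 -5.62, SE 0.85, limma adjusted p = 0.00708). The groups were far apart, with the third E-OEX-LE library the highest. Cyp26b1 stood at 40.1, 124 and 60.9 in E-OEX-GE and at 8.22, 2.72 and 3.24 in E-OEX-LE. Aldh1a2 was 644, 416 and 367 in E-OEX-GE and 47.5, 18.2 and 32.4 in E-OEX-LE, and Aldh1a3 was 222, 211 and 3.24 in E-OEX-LE. U-OEx-LE minus E-OEX-LE was -0.42 for Aldh1a2, -0.51 for Aldh1a3 and -0.54 for Cyp26b1 (log2, limma adjusted p = 0.658, 0.83 and 0.624).

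Among other retinoid genes, Stra6, the retinol uptake receptor, rose in U-OEx-LE against Ctrl-LE by 2.63 (log2, SE 0.49, limma adjusted p = 0.0022). Dhrs3, which returns retinal to retinol, fell by 1.23 there (SE 0.29, limma adjusted p = 0.0077). Rarb, a retinoic acid receptor, rose by 3.06 (SE 0.63, limma adjusted p = 0.00402). In E-OEX-GE against Ctrl-GE, Rdh10, which makes retinal from retinol, fell by 1.87 (SE 0.27, limma adjusted p = 0.00111), and Adh1, an alcohol dehydrogenase, rose by 4.5 (SE 0.41, limma adjusted p = 0.000115). Adh1 also rose in E-OEX-LE, by 3.44 (SE 0.79, limma adjusted p = 0.0243).

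Of 11 aldehyde dehydrogenase genes tested in U-OEx-LE, 5 rose (Aldh3b1, Aldh1b1, Aldh9a1, Aldh2 and Aldh5a1) and Aldh6a1 fell. Of all genes 29.1% rose and 27.8% fell there. In Ctrl, all 5 that rose had the higher mean in GE, as had Aldh6a1. The Ctrl list was chosen for that difference with the same Ctrl-LE libraries, so this split is no independent evidence. Aldh1b1 passed in 2 of the 6 fits without 1 library. Aldh3b1 had the largest of these rises, from 44.5, 29.7 and 10.1 to 389, 397 and 335 (log2 3.88, SE 0.55, limma adjusted p = 0.000552). Aldh2, which clears acetaldehyde, went from 877 ± 374 to 2402 ± 481 (n = 3 each; log2 1.49, SE 0.36, limma adjusted p = 0.00852). Aldh1l1, an enzyme of folate metabolism, was 1001, 1076 and 1034 in Ctrl-GE and 431, 978 and 838 in E-OEX-GE. It fell by 1.02 (log2, SE 0.29, limma adjusted p = 0.0308) and did not pass on the deposited scale (0.209), in the fit of all groups together (0.174) or without any 1 Ctrl-GE library or E-OEX-GE replicate 3 (0.0646 to 0.15).

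Of 24 Cyp genes tested in U-OEx-LE against Ctrl-LE, 6 rose, 7 fell and 11 did not pass in limma. Of all genes 29.1% rose and 27.8% fell, so these counts are near the share of all genes. Besides those given above, Cyp4f41-ps, Cyp2j9 and Cyp2j6 rose, and Cyp2j9 and Cyp2j6 each passed in 1 of the 6 fits without 1 library. Cyp4x1, of the fatty acid hydroxylase family, was 1122, 372 and 608 in Ctrl-LE, 288, 166 and 977 in E-OEX-LE and 8.27, 5.33 and 7.68 in U-OEx-LE. U-OEx-LE lay below every other LE library, 103-fold below Ctrl-LE (log2 -6.33, SE 0.50, limma adjusted p = 3.31e-05) and 73.8-fold below E-OEX-LE (log2 -5.63, SE 0.64, limma adjusted p = 0.00396) on rescaled means. Cyp4x1 and the antisense gene Cyp4x1os overlap, and no source used here states whether strand was counted, so reads of the pair cannot be told apart. Cyp2a5, a coumarin hydroxylase that shares 37% of its 50-base stretches with Cyp2a4 or another gene, was 379, 15.4 and 155 in Ctrl-LE and 0 in each U-OEx-LE library, at least 70.8-fold lower (log2 -6.66, SE 1.09, limma adjusted p = 0.00117). Cyp4a12a and Cyp2j11 also fell to the floor, by at least 5.62-fold and 4.47-fold. Both were at the floor in Ctrl-GE as well, and Cyp2a5 had 6.81, 3.79 and 0 there. These genes were thus listed, and passed the filter on low values, through Ctrl-LE, the group they are compared with. Their falls are no independent evidence.

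The sulfotransferases add sulfate to phenols, steroids and amines. Sult1d1 (ENSMUSG00000029273, chromosome 5, 87554645 to 87569027), which sulfates catecholamines and phenols, was 6351, 2660 and 6182 in Ctrl-LE, 664, 327 and 2163 in E-OEX-LE and 7.35, 25.8 and 9.60 in U-OEx-LE. The 3 LE groups did not overlap, with U-OEx-LE lowest. U-OEx-LE was 369-fold below Ctrl-LE on rescaled means, and its log2 fold change of -8.49 was the largest fall of the enzyme genes tested there (SE 0.53, limma adjusted p = 1.43e-05). It was also 80.4-fold below E-OEX-LE (log2 -6.0, SE 0.72, limma adjusted p = 0.00419).

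The falls of Sult1d1 in E-OEX were smaller and less stable. In E-OEX-LE the log2 fold change was -2.77 (SE 0.69, limma adjusted p = 0.0332), lost in edgeR (adjusted p = 0.0603) and without Ctrl-LE replicate 1 or 3 or E-OEX-LE replicate 1 or 2 (0.0622 to 0.143). In GE, Sult1d1 was 15139, 13709 and 15104 in Ctrl and 3330, 11526 and 9827 in E-OEX, with the first E-OEX library the lowest. The difference was -1.48 (SE 0.39, limma adjusted p = 0.0217), lost on the deposited scale (0.092), in the fit of all groups together (0.142) and without any 1 Ctrl-GE library (0.0537 to 0.112).

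In U-OEx-LE all 5 Sult genes tested passed, where 56.9% of all genes passed. In Ctrl, Sult1a1, Sult2b1 and Sult4a1 had the higher mean in LE, and Sult1c2 and Sult1d1 had it in GE. The Ctrl list was chosen for that difference with the same Ctrl-LE libraries, so these calls are no independent evidence. Sult1a1, a phenol sulfotransferase, fell from 1081, 745 and 957 to 26.6, 50.7 and 35.5 (log2 -4.64, SE 0.34, limma adjusted p = 2.45e-05). Sult2b1, which sulfates cholesterol, and Sult4a1 fell too, and each did not pass without Ctrl-LE replicate 3, U-OEx-LE replicate 1 or 1 other U-OEx-LE library (limma adjusted p up to 0.0599 and 0.101). Sult1c2 rose, from 10.4, 5.12 and 14.5 to 217, 124 and 103 (log2 3.77, SE 0.52, limma adjusted p = 0.000504). Its values were 58.4, 6.36 and 7.56 in E-OEX-LE, and the excess of U-OEx-LE over E-OEX-LE was 3.07 (SE 0.76, limma adjusted p = 0.0314). That excess did not pass without E-OEX-LE replicate 2 or 3 or any 1 U-OEx-LE library (0.0772 to 0.14) or in edgeR (adjusted p = 0.0711). Papss2, which makes the sulfate donor, fell by 3.49 in E-OEX-GE (log2, SE 0.30, limma adjusted p = 8.62e-05).

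Of 11 glutathione transferase genes tested in U-OEx-LE, 7 fell, Gstk1 and Gstt2 rose, and the median log2 difference was -2.19, against 0.09 over all genes tested. Of all genes 29.1% rose and 27.8% fell. In Ctrl, each of the 7 that fell had the higher mean in LE, and Gstk1 and Gstt2 had it in GE. The Ctrl list was chosen for that difference with the same Ctrl-LE libraries, so this split and median are no independent evidence. Gstm2 was 40112, 25918 and 40289 in Ctrl-LE and 833, 1071 and 729 in U-OEx-LE, 41.4-fold lower on rescaled means (log2 -5.35, SE 0.27, limma adjusted p = 7.25e-06). Gstm1 went from 40825, 27558 and 40304 to 2074, 2733 and 2445 (log2 -3.91, SE 0.25, limma adjusted p = 1.45e-05). Every U-OEx-LE library was below every Ctrl-GE library for both genes. Ctrl-GE averaged 3491 ± 698 for Gstm2 and 2935 ± 115 for Gstm1 (n = 3 each, deposited scale). Gstm1 shares 18.9% of its 50-base stretches with the pseudogene Gstm2-ps1 or another gene. Gstm2-ps1 shares 46.9%, and its fall of 3.99 (log2, SE 0.43, limma adjusted p = 0.000139) may hold reads of its relatives.

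Gsto1 (ENSMUSG00000025068, chromosome 19, 47854970 to 47864790), an omega-class enzyme that reduces dehydroascorbate and arsenic compounds, was 61617, 64484 and 60482 in Ctrl-LE. It was 22690, 10471 and 33444 in E-OEX-LE and 14576, 17603 and 10274 in U-OEx-LE. Every overexpressing LE library was below the Ctrl-LE libraries, and the 2 overexpressing groups overlapped. The log2 fold change was -2.19 in U-OEx-LE (SE 0.24, limma adjusted p = 0.000139) and -1.81 in E-OEX-LE (SE 0.48, limma adjusted p = 0.0414).

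The E-OEX calls of Gsto1 depended on the setting. In LE the call was lost under 5 of the other settings (adjusted p from 0.0505 to 0.0675) and without E-OEX-LE replicate 1 or 2 or any 1 Ctrl-LE library (0.0601 to 0.168). In GE its values were 6857, 5719 and 6662 in Ctrl and 3115, 6674 and 4737 in E-OEX, which overlap on the deposited scale. The difference of -0.93 (log2, SE 0.28, limma adjusted p = 0.0396) was lost on that scale (0.236), in the fit of all groups together (0.127), in edgeR (adjusted p = 0.0559) and without any 1 Ctrl-GE library or E-OEX-GE replicate 1 or 3 (0.0635 to 0.203).

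Gstk1, a mitochondrial and peroxisomal transferase, was 12.4, 10.2 and 10.1 in Ctrl-LE, 60.2, 96.3 and 81.0 in E-OEX-LE and 38.6, 60.4 and 30.7 in U-OEx-LE. Both overexpressing groups lay above Ctrl-LE. The rise in E-OEX-LE was 2.56 (log2, SE 0.60, limma adjusted p = 0.0251) and did not pass without Ctrl-LE replicate 2 or 3 or E-OEX-LE replicate 1 or 2 (0.0616 to 0.127). In GE, Gstk1 was 117, 109 and 108 in Ctrl and 178, 217 and 188 in E-OEX, a difference of 0.33 after rescaling (SE 0.26, limma adjusted p = 0.42). Gstz1, of tyrosine breakdown, fell in E-OEX-GE from 3381, 3326 and 3411 to 1023, 2325 and 1831 (log2 -1.51, SE 0.28, limma adjusted p = 0.00454).

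**Figure D3:**
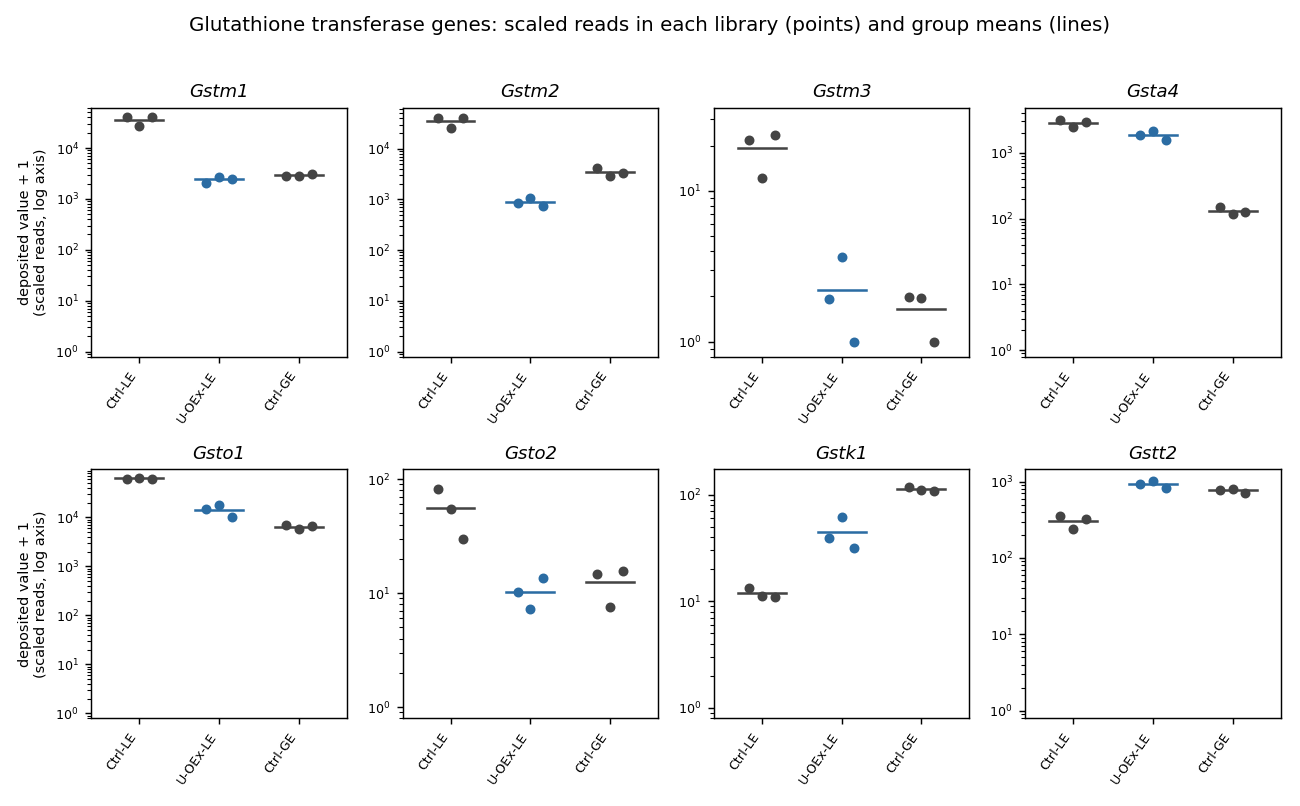
Scaled read counts plus 1 (log axis) of 8 glutathione transferase genes in Ctrl-LE, U-OEx-LE and Ctrl-GE, 3 libraries each, with lines for group means. Gstm1, Gstm2, Gstm3, Gsta4, Gsto1 and Gsto2 are lower in U-OEx-LE than in Ctrl-LE, and Gstk1 and Gstt2 are higher; Gsta4 passed in 1 of the 6 fits without 1 library.

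Genes that supply glutathione and glucuronic acid were read beside the transferases. Gclm, a subunit of the enzyme that starts glutathione synthesis, changed by -0.82 in U-OEx-LE (log2, SE 0.22, limma adjusted p = 0.013) and by -0.92 in E-OEX-GE (SE 0.23, limma adjusted p = 0.0193). Ugp2 and Ugdh, which make UDP-glucose and UDP-glucuronic acid, changed by -2.40 (log2, SE 0.31, limma adjusted p = 0.000344) and -0.86 in U-OEx-LE (SE 0.25, limma adjusted p = 0.0195). The Ugt1a genes share their last exons, and Ugt1a1, Ugt1a6a, Ugt1a7c and Ugt1a8 share 52.1% to 80.2% of their 50-base stretches, so their values are uncertain. Ugt1a7c rose in U-OEx-LE, from 140, 126 and 72.6 to 612, 386 and 281 (log2 1.87, SE 0.41, limma adjusted p = 0.0053), and Ugt1a8 fell.

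The carboxylesterases hydrolyse esters in lipids and drugs. Ces1d was 410, 453 and 350.4 in Ctrl-GE and 1977, 2552 and 2440 in E-OEX-GE, 4.16-fold higher on rescaled means (log2 2.05, SE 0.22, limma adjusted p = 0.000195). Ces1f rose from the floor to 14.0, 23.0 and 15, at least 4.52-fold (log2 2.69, SE 0.52, limma adjusted p = 0.005). In Ctrl, both genes were higher in LE than in GE. In LE they spread widely, with Ces1d at 4727, 1002 and 3109 in Ctrl-LE, 5925, 2732 and 10590 in E-OEX-LE and 2712, 3025 and 1716 in U-OEx-LE, and neither passed in any LE comparison.

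**Figure D4:**
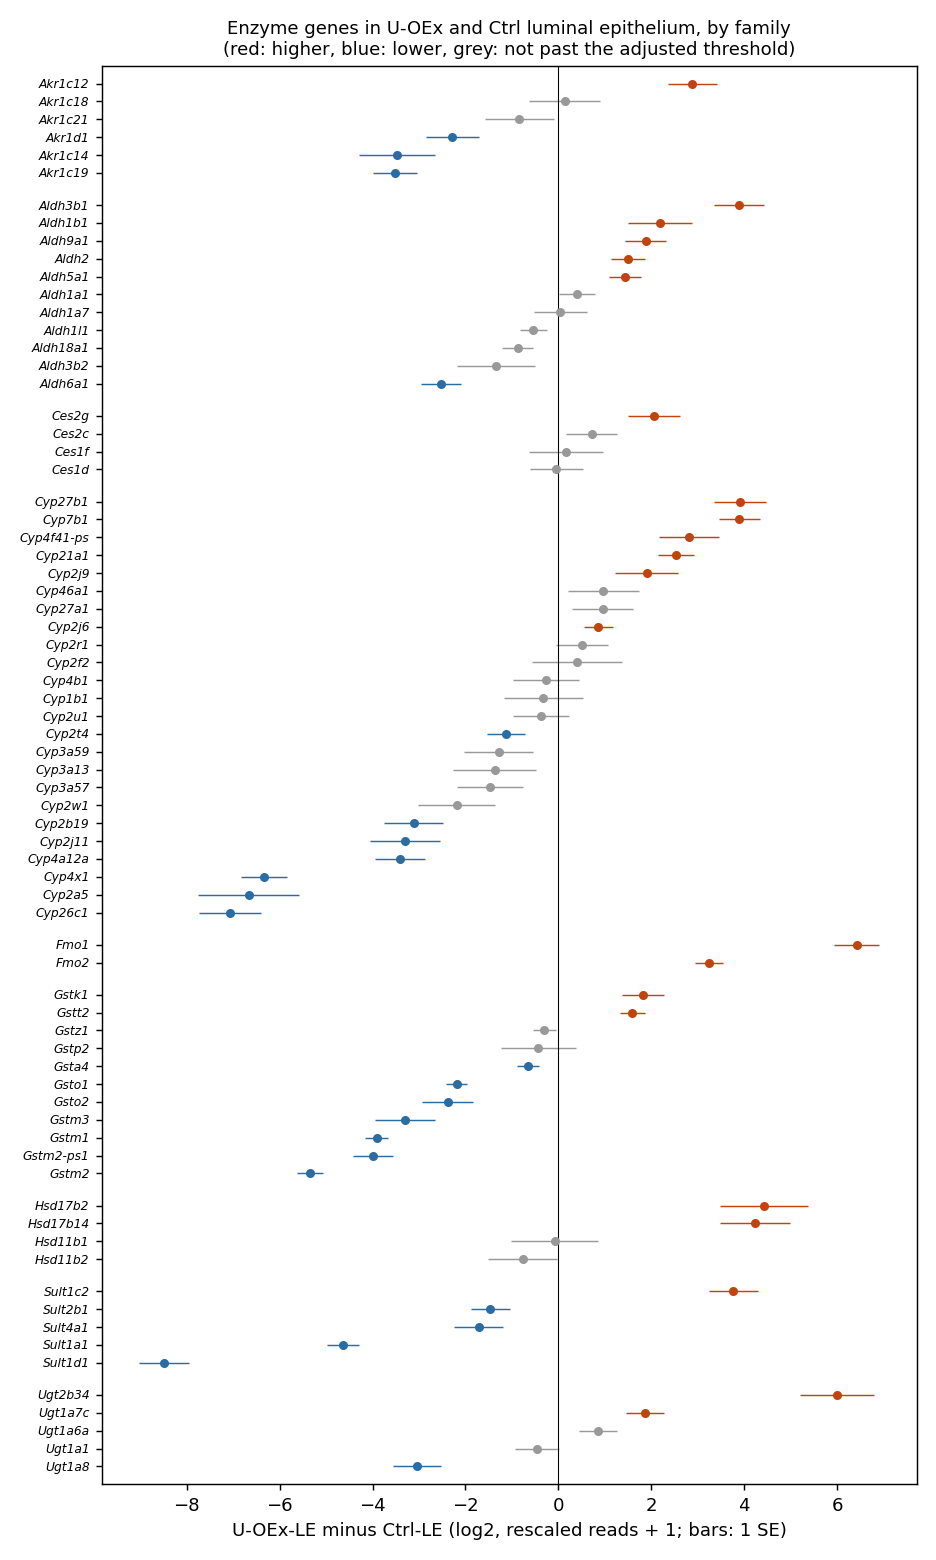
Log2 fold changes with 1 SE of the 72 enzyme genes tested in U-OEx-LE against Ctrl-LE, grouped by family and coloured by call. The 22 that rose and 23 that fell are spread over most families, with Fmo1 at 6.42 and Sult1d1 at -8.49 as the extremes.

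Between the overexpressing groups in LE, further enzyme genes were lower in U-OEx-LE. Gstm6, a mu-class transferase, was 230.0, 107 and 234 in E-OEX-LE and 28.5, 40.0 and 31.7 in U-OEx-LE (log2 -2.54, SE 0.43, limma adjusted p = 0.0104). Gstm3 went from 25.6, 27.2 and 21.6 to the floor (log2 -3.87, SE 0.65, limma adjusted p = 0.00979), and its Ctrl-LE values of 20.7, 11.3 and 22.4 lay near those of E-OEX-LE. It was listed for E-OEX as higher in LE and passed the filter on low values chiefly through E-OEX-LE. The fall of Gstm3 is thus no independent evidence. Gsta2, which shares 49.8% of its 50-base stretches with Gsta1 or another gene, was 91.3, 54.5 and 328 against 16.5, 24.9 and 8.64. The groups did not overlap in any of these 3 genes. Without U-OEx-LE replicate 1 none of the 3 passed, and Gstm6 and Gsta2 did not pass without U-OEx-LE replicate 3 (limma adjusted p from 0.0557 to 0.126 over all fits that lost Gsta2). Akr1c14, Akr1c19, Cyp26c1, Cyp3a57, Cyp4f15 and Cyp4x1os were also lower, and each did not pass without U-OEx-LE replicate 1 or without U-OEx-LE replicate 3.

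The position of each gene between GE and LE is a description, since the Ctrl and E-OEX lists hold genes chosen for that difference. In Ctrl, 46 of 76 enzyme genes (60.5%) had the higher mean in GE, as had 57% of all listed genes. In E-OEX, 43 of 66 (65.2%) did, against 63.9% of all listed genes. Of 39 genes listed for both genotypes, 25 were higher in GE in both and 12 higher in LE in both, leaving Fmo2 and Hsd17b14.

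The difference between the E-OEX effects in GE and LE was fitted for the 39 enzyme genes listed for both genotypes, and 6 passed in limma (15.4%, against 10.7% of all 2933 genes). Both lists hold genes chosen for a GE to LE difference, from which this difference is built, so these calls are no independent evidence. Of all genes 5.83% had a positive difference past the threshold and 4.91% a negative one. On deposited values the median difference was 0.33 over all genes, and after TMM rescaling it was 0.07. Fmo2 had the larger rise in GE, and Cyp3a25 (-5.26), Cyp3a16 (-4.37), Hsd17b14 (-4.28), Cyp3a59 (-4.20) and Gstk1 (-1.93) had negative differences on the log2 scale. These 3 Cyp3a genes had 0 to 6.14 in the LE libraries of both genotypes and passed the filter on low values through GE, so their difference restates the fall in GE and depends on the pseudocount. The count was 3 without Ctrl-GE replicate 3, and it was 3 in edgeR, which did not call the Cyp3a genes (adjusted p of 0.97 for Cyp3a25, 1 for Cyp3a16 and 0.85 for Cyp3a59).
Of 36 genes tested in both epithelia against Ctrl, 3 rose in both, 3 fell in both, 2 passed in LE and not in GE, 9 passed in GE and not in LE, and 19 passed in neither. Over all 2518 genes tested in both, 1.43% rose in both, 1.75% fell in both, 6.55% passed in LE and not in GE, 20% in GE and not in LE, and 69.2% in neither.

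**Figure D5:**
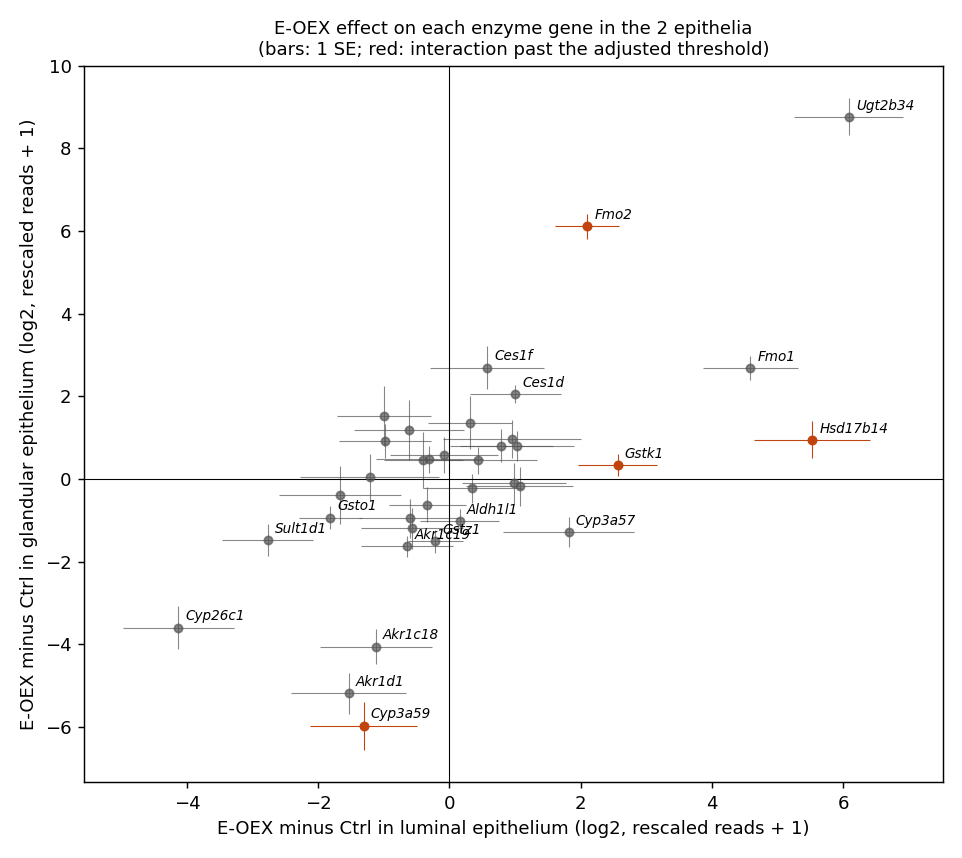
Log2 fold change of E-OEX against Ctrl in LE (x axis) and GE (y axis) for the 36 enzyme genes tested in both, with 1 SE, and red points where the difference between the effects passed. Fmo2 and Ugt2b34 lie high in GE and Hsd17b14 lies far right in LE; Cyp3a25 and Cyp3a16 had too few reads in LE to be plotted.

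A wider list of 82 genes of the same pathways (nuclear receptors, electron donors, cofactor supply, other enzymes, transporters and retinoid binding proteins) was read beside the enzymes. In E-OEX-LE Adh1 rose, the 1 call among 16 tested (6.25%, against 10.7% of all genes). In E-OEX-GE 1 of 17 rose (Adh1) and 5 fell (Nr1i2, Papss2, Rdh10, Gclm and Maob), which is 35.3% against 23.5% of all genes. Nr1i2, the pregnane X receptor that controls Cyp3a genes in liver, had rescaled means of 63.1 in Ctrl-GE and 21.2 in E-OEX-GE (log2 -1.53, SE 0.39, limma adjusted p = 0.0193). Nr1i2 rose in U-OEx-LE against Ctrl-LE, and Cyp3a57 and Cyp3a59 had 0 in each U-OEx-LE library. A link between Nr1i2 and the Cyp3a genes was not tested. In U-OEx-LE against Ctrl-LE, 9 of 36 rose and 12 fell, and these 58.3% are near the 56.9% of all genes. Aox4, an aldehyde oxidase, had the largest fall of these (log2 -7.07, SE 0.45, limma adjusted p = 1.43e-05). Cyb5r3, a reductase that feeds electrons to P450s through cytochrome b5, had rescaled means of 25431 in Ctrl-LE and 2218 in U-OEx-LE (log2 -3.48, SE 0.29, limma adjusted p = 4.44e-05). Abcc3, an exporter of glucuronides, had 198 and 2696 (log2 3.91, SE 0.42, limma adjusted p = 0.000144). Pgr, the progesterone receptor, fell by 1.96 (SE 0.37, limma adjusted p = 0.00267). In U-OEx-LE against E-OEX-LE, 4 of 25 rose (Hmox1, Srd5a1, Nr1i2 and Rdh10) and 3 fell (Crabp2, Gclc and Dhrs3), 28% against 15% of all genes. Nr1i2 was low in both, at 4.59 to 18.7 in U-OEx-LE and 0 to 2.16 in E-OEX-LE.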

How the data were processed

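Total RNA of uterine epithelium was sequenced in 15 libraries, 3 in each of 5 groups named by the sample titles. The authors' deposited values are scaled read counts, used as a signal: reads divided by 1 factor per library, read from the values, of which 100% fell within 0.01 of a whole read. GRCm38 and mm10 are named in the submitters' processing notes; aligner, counter, annotation and scaling are not given in the sources used here. Reads were recovered and, for the genes shared by the groups compared, rescaled with TMM (edgeR 4.0.16). Genes with a mean of at least 1 were tested with limma 3.58.1 (trend, R 4.3.3) on log2(value + 1), two-sided, at an adjusted p of 0.05. The interaction used deposited values. Scripts were tested on simulated data. DESeq2 1.42.0 and edgeR were alternatives. A fold on this log2 scale understates changes of low genes. Depth is known only as reads in listed genes, and p-values cover the spread between libraries. Replicates differed beyond sampling noise (chi-square per degree of freedom 18.2 to 204).

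The enzyme genes and all lists were chosen with earlier results of these data known, so they are no independent evidence. Named genes were, per comparison, up to 12 past the threshold in each direction with the largest change, Ugt2b34, Fmo2, Sult1d1, Cyp3a25 and Gsto1, the highest tested gene of each family, and pathway genes past the threshold. Further genes are named after their values were seen, without a test beyond the fit over all genes. Marker lists covered general, luminal and glandular epithelium, stroma, smooth muscle, endothelium, immune cells and hepatocytes. Promoter sequences are RefSeq's (GRCm38.p6). Shared stretches are 50-base stretches of a gene's transcripts found in another gene's.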

Additional observations from a re-analysis of the deposited data

Results flagged for a closer look

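For 6 enzyme genes, the difference between the E-OEX effects in GE and LE passed in limma (interaction, adjusted over all genes). The genes were listed for GE to LE differences, from which the interaction is built, so these calls are no independent evidence. Fmo2 had the positive difference, 4.30 on the log2 scale (SE 0.60, adjusted p = 0.00113). Cyp3a25 had -5.26 (SE 0.74, adjusted p = 0.00113) and Cyp3a16 had -4.37 (SE 0.90, adjusted p = 0.00849). For Hsd17b14 the difference was -4.28 (SE 1.02, adjusted p = 0.0174). Cyp3a59 had -4.20 (SE 1.11, adjusted p = 0.0303), lost without Ctrl-LE replicate 3, E-OEX-LE replicate 2, E-OEX-GE replicate 1 or any 1 Ctrl-GE library (0.0519 to 0.0787). Gstk1 had -1.93 (SE 0.53, adjusted p = 0.0349), lost without 8 of the 12 libraries in turn (0.0588 to 0.0978). With a pseudocount of 0.1 the adjusted p in limma was 0.0529 for Cyp3a25, 0.496 for Cyp3a59 and 0.0603 for Hsd17b14. In DESeq2 it was 0.0689 for Cyp3a25, 0.165 for Cyp3a16 and 0.686 for Cyp3a59. In edgeR it was 0.97 for Cyp3a25, 1 for Cyp3a16 and 0.85 for Cyp3a59. These 3 genes had 0 to 6.14 in LE, and their values restate the fall in GE.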

How the results depend on the processing

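Leaving out 1 library at a time gave 3 to 8 enzyme genes called in E-OEX-LE against Ctrl-LE, 13 to 17 for GE, 37 to 47 for U-OEx-LE against Ctrl-LE, 3 to 16 in U-OEx-LE against E-OEX-LE and 3 to 8 for the interaction. Fitting the 5 groups together gave 11 calls for GE and 22 for U-OEx-LE against Ctrl-LE, the latter over 37 genes tested in place of 72. The interaction gave 3 calls with a pseudocount of 0.1 and 3 in edgeR. Leaving out 1 library turned the sign of genes that had not passed, over ranges of -0.31 to 0.59 for Aldh1l1 and -1.18 to 0.072 for Akr1c19 (E-OEX-LE minus Ctrl-LE), -0.60 to 0.94 for Hsd11b1 and -0.73 to 0.50 for Ces1d (U-OEx-LE minus Ctrl-LE), and -0.20 to 0.42 for Akr1b3 and -0.88 to 0.39 for Ugt2b34 (U-OEx-LE minus E-OEX-LE). The cause was not tested.

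Whether libraries with the same replicate number share an animal is not given. Their deviations correlated from -0.28 to 0.19, which cannot settle it with 3 libraries in each group. The main fits, the interaction among them, treated all libraries as independent. With the replicate number as a block, the counts were 8, 16, 42, 14 and 6, and Gsto1 in E-OEX-GE (adjusted p = 0.0518), Cyp4f15 in U-OEx-LE against E-OEX-LE (0.0542) and the interaction of Gstk1 (0.052) did not pass. Genes near 0 in one group are limited by the reads in listed genes.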
